A study of Sus scrofa with 30 samples.

Results

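This report describes how porcine neonatal islet cell clusters (NICCs) responded to SB431542, an inhibitor of the TGFβ receptor kinase, when LDN was also in the medium. It compares 4 RNAseq libraries of NICCs cultured with HSA + SB + LDN with 4 libraries cultured with HSA + LDN, all at culture day 10. These 8 of the 24 libraries of the series were chosen by their treatment and culture day labels alone. The study asked how the circulating liver protein fetuin-A and inhibition of the TGFβ receptor affect the maturation of NICCs. The remaining libraries were from HSA at day 6, HSA at day 10, fetuin-A at day 10 and HSA + SB at day 10, with 4 libraries each. The HSA + SB and HSA libraries of day 10 gave a separate measurement of the SB431542 response, without LDN, that shared no library with the first.

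All groups consisted of NICCs from German Landrace or Landrace-Yorkshire piglets aged 2 to 12 days, without a genetic modification named in the labels. Animals of 4 and of 12 days are named for the RNAseq, but no label gives the age behind a library. NICCs are clusters of pancreatic cells that remain after collagenase digestion and a few days of culture, and they contain endocrine, exocrine, ductal, mesenchymal and endothelial cells. Human serum albumin (HSA) was a component of the medium in all 4 groups used here, and SB in the labels is SB431542. LDN is the name that the labels give to a further addition, and neither they nor the text of the paper state its identity or dose, so it is used here only as a label. The series was made from 4 independent islet preparations, but no label ties a library to a preparation.

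TGFβ and activin ligands bind pairs of receptor kinases, and the type I receptor phosphorylates SMAD2 and SMAD3, which enter the nucleus with SMAD4 and regulate transcription. Among the best known targets are inhibitors of the pathway itself, such as *SMAD7* and *SKIL*, and genes of the extracellular matrix. SB431542 blocks the type I receptors of TGFβ, activin and nodal (encoded by *TGFBR1*, *ACVR1B* and *ACVR1C*) and largely spares those of the bone morphogenetic proteins (BMPs), which signal through SMAD1, SMAD5 and SMAD9. In the islet, TGFβ and activin signals act on endocrine differentiation, on beta cell maturation and on the surrounding mesenchyme.

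Total counts per library were between 18883734 and 21194279 in HSA + LDN and between 19741452 and 21012848 in HSA + SB + LDN, and 17259 to 17471 genes had at least 1 count in each of these 8 libraries. Values are given as CPM, which are counts scaled to the library size and by TMM, and they are compared between conditions, not between genes, because gene length was not used. The islet hormones were abundant in both groups. *GCG*, the glucagon gene, was at 19711 ± 4602 CPM in HSA + LDN (mean ± SD, n = 4), and *INS*, the insulin gene, was at 3114 ± 2307 CPM. The symbols *PDX1*, *UCN3*, *IAPP* and *KCNJ11* were paired with no identifier in the table used here. In such bulk libraries, fewer cells of a type and less RNA per cell cannot be told apart.

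In the presence of LDN, more genes were called lower than higher with SB431542 when the runs of library numbers were not in the model. Of 14842 genes tested, 36 (0.243%) were upregulated and 87 (0.586%) were downregulated with thresholds of 1 for the absolute log2 fold change and 0.05 for the adjusted p (edgeR quasi-likelihood test). Upregulated genes had a median log2 fold change of 1.56, and downregulated genes of −1.83. In all 123 (0.829%) the 4 libraries with and the 4 without SB431542 did not overlap, which was the case for 4.96% of all genes in the upward and 5.26% in the downward direction. With adjusted p alone 79 (0.532%) were higher and 179 (1.21%) lower.

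Library numbers run through the 6 conditions in 4 consecutive runs of 6, and libraries of the same run deviated together from their condition means. With the run as a block in the model (the replicate block), 182 genes (1.23%) were upregulated and 203 (1.37%) were downregulated, or 385 (2.59%) in all. By adjusted p alone with the block, 1018 (6.86%) were higher and 1009 (6.8%) were lower, so that lower genes were not in excess by this rule. All 123 genes called without the block were also called with it. Each of the 123 moved in the same direction in all 4 runs, which follows from groups that did not overlap. The number of calls without the block also depended on single libraries. The upregulated genes were 16, 15, 14, 22, 16, 13 and 22 without HSA + LDN replicate 1, HSA + SB + LDN replicate 1, HSA + LDN replicates 2 and 3, HSA + SB + LDN replicate 3, HSA + LDN replicate 4 and HSA + SB + LDN replicate 4, respectively. The downregulated genes were 52, 49, 55, 43 and 50 without HSA + LDN replicate 1, HSA + SB + LDN replicate 1, HSA + LDN replicate 2, HSA + SB + LDN replicate 3 and HSA + SB + LDN replicate 4, respectively. No gene called with all libraries changed sign in any of these 8 fits. As the groups of these genes did not overlap, leaving out 1 library left no room for such a change.

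The genes with the smallest p values among the downregulated ones included feedback inhibitors of the pathway. *SKIL*, which encodes the SMAD corepressor SnoN, was at 84.0, 73.3, 61.7 and 86.7 CPM in the 4 HSA + LDN libraries. In HSA + SB + LDN it was at 27.5, 30.8, 25.7 and 25.4 CPM, and the 2 groups did not overlap. The log2 fold change was −1.48 ± 0.11 (SE, adjusted p = 2.53e-07). *PMEPA1*, which encodes a membrane protein that sequesters SMAD2 and SMAD3, was at 385, 427, 263 and 373 CPM in HSA + LDN and at 91.1, 83.2, 74.1 and 60.5 CPM in HSA + SB + LDN. The groups were far apart, with a log2 fold change of −2.23 ± 0.19 (adjusted p = 8.3e-07). *SMAD7*, the inhibitory SMAD that targets the type I receptor, was at 15.4, 15.5, 8.53 and 10.9 CPM without and at 2.80, 3.12, 2.09 and 1.66 CPM with SB431542. Control replicates 3 and 4 were lower than replicates 1 and 2, yet each was above every treated library (log2 fold change −2.38 ± 0.30, adjusted p = 0.000138).

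**Figure D1:**
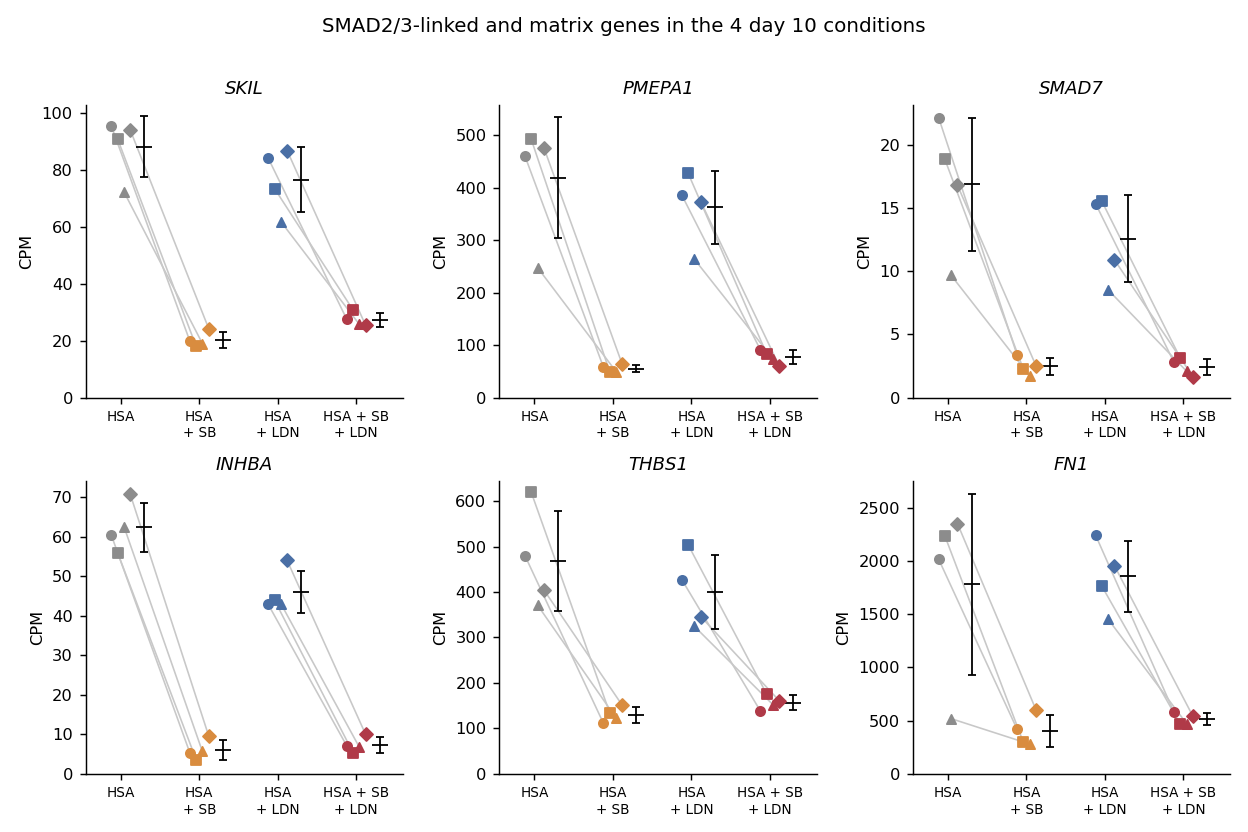
CPM (y axis, from 0) of 6 genes in the 4 day 10 conditions (x axis), with 1 symbol per run of library numbers, grey lines joining libraries of the same run, and bars for the mean ± SD of 4 libraries. In all 6 genes the 4 HSA + SB + LDN libraries lay below the 4 HSA + LDN libraries, for example at 5.35 to 10.0 against 42.8 to 54.0 CPM for *INHBA*.

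The list of SMAD2/3 target and feedback genes had 25 members tested, of which 6 were downregulated and 0 upregulated. Over all genes tested the shares were 0.586% and 0.243%. Among them were *SKIL*, *PMEPA1*, *SMAD7*, *IL11* and *SNAI1*. *IL11*, a cytokine of the interleukin 6 family, fell from 118 ± 28.3 to 21.8 ± 7.07 CPM (log2 fold change −2.44 ± 0.27, adjusted p = 5.46e-05). *SNAI1*, a transcription factor of the epithelial to mesenchymal transition, was at 18.6, 11.4, 10.1 and 12.4 CPM in HSA + LDN and at 6.18, 3.78, 4.80 and 4.93 CPM in HSA + SB + LDN (log2 fold change −1.41 ± 0.27, adjusted p = 0.0083).

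Below the fold threshold, *LDLRAD4*, *SMURF1*, *SMURF2* and *NEDD9* were lower by adjusted p alone, with log2 fold changes between −0.79 and −0.25. *SMURF1* and *SMURF2* encode ubiquitin ligases that act on SMADs and receptors. *MYC* and *SPHK1* were higher by adjusted p alone. Over all genes tested, 1.21% were lower and 0.532% higher by this rule. *MYC*, which TGFβ represses in many epithelial cells, was at 32.9 ± 2.39 CPM in HSA + LDN and at 50.4 ± 3.75 CPM in HSA + SB + LDN (log2 fold change 0.62 ± 0.14, adjusted p = 0.0212), and the groups did not overlap. *SPHK1*, which encodes sphingosine kinase 1, had a log2 fold change of 0.63 ± 0.10 (adjusted p = 0.00238). With the replicate block 8 members were downregulated, with *POSTN* and *ELN* in addition, against 1.37% of all genes. The median log2 fold change of the 25 was −0.72, against 0.0019 over all genes tested.

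The members of this list that did not pass either threshold differed widely. *CCN2*, the connective tissue growth factor gene and a common TGFβ target, had a log2 fold change of −0.32 (adjusted p = 0.221, and 0.0456 with the replicate block). *CDKN1A*, the gene of the cell cycle inhibitor p21, was at 0.24 (adjusted p = 0.577). *CDKN2B*, which encodes p15, was at −0.67 with an adjusted p of 0.462, and it had only 2.11 ± 0.575 CPM in HSA + LDN. *CDKN2A* and *JUNB* were below the count filter.

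Of 9 ligand genes tested, 1 was downregulated and 0 upregulated, against 0.586% and 0.243% of all genes. *INHBA*, which encodes the subunit of activin A, was at 42.8, 43.9, 43.1 and 54.0 CPM in HSA + LDN. In HSA + SB + LDN it was at 7.07, 5.35, 6.75 and 10.0 CPM, a log2 fold change of −2.66 ± 0.23 (adjusted p = 8.3e-07), and the groups were widely separated. *INHBB*, the subunit of activin B, was at 18.3, 13.5, 19.5 and 22.6 CPM without and at 33.9, 19.6, 40.1 and 54.9 CPM with SB431542. Here replicate 2 was the lowest of each group and the groups overlapped. The log2 fold change was 1.01 ± 0.27 with an adjusted p of 0.0679, and 0.96 with an adjusted p of 2.74e-06 with the replicate block. *TGFB1* was lower by adjusted p alone (log2 fold change −0.71 ± 0.18, adjusted p = 0.0427). *TGFB2* and *TGFB3* had log2 fold changes of −0.31 and 0.27 (adjusted p = 0.658 and 0.631). *INHBA* was the only ligand gene called, with and without the block.

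None of the 11 receptor and SMAD genes was called without the block. The targets of SB431542 had small differences, with log2 fold changes of −0.25 for *TGFBR1* (adjusted p = 0.145, and 0.034 with the replicate block), −0.15 for *ACVR1B* and −0.26 for *ACVR1C*. *SMAD2*, *SMAD3* and *SMAD4* lay between −0.11 and 0.10. *ENG*, the gene of the coreceptor endoglin, was at 137, 137, 73.8 and 95.1 CPM in HSA + LDN and at 57.1, 62.3, 41.6 and 43.1 CPM in HSA + SB + LDN. Its adjusted p was 0.0584 without and 0.00296 with the replicate block (log2 fold change −1.12 and −1.09).

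Among the genes of proteins that store, activate or trap the ligands, 1 of 16 was downregulated and 0 upregulated. The downregulated gene was *THBS1*, and *ITGAV*, *LTBP3* and *FSTL3* were lower by adjusted p alone. Of all genes, 0.586% were downregulated, 0.243% upregulated and 1.21% lower by adjusted p alone. *THBS1*, which encodes thrombospondin 1, an activator of latent TGFβ, was at 427, 504, 324 and 346 CPM in HSA + LDN and at 138, 176, 152 and 161 CPM in HSA + SB + LDN (log2 fold change −1.35 ± 0.18, adjusted p = 0.000185). *ITGAV*, an integrin subunit of the receptors that release TGFβ, fell by a smaller but narrowly measured amount, with a log2 fold change of −0.47 ± 0.08 (adjusted p = 0.00267). *FSTL3*, an activin binding protein, just missed the fold threshold at −0.97 ± 0.23 (adjusted p = 0.033). With the replicate block *LRRC32*, *LTBP2* and *BGN* were called in addition, which made 4 of 16, against 1.37% of all genes. By adjusted p alone with the block 9 of the 16 were lower, against 6.8% of all genes. *FST*, the gene of follistatin, was at 1.75 CPM in HSA + LDN and at 1.27 CPM in HSA + SB + LDN and did not pass (log2 fold change −0.46, adjusted p = 0.407).

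Of 24 extracellular matrix genes tested, 3 were downregulated and 0 upregulated, against 0.586% and 0.243% of all genes. *COL8A1*, a collagen VIII chain, was at 27.3, 34.2, 20.7 and 37.1 CPM in HSA + LDN and at 2.06, 1.84, 2.66 and 4.54 CPM in HSA + SB + LDN (log2 fold change −3.42 ± 0.58, adjusted p = 0.0029). *FN1*, the fibronectin gene, fell from 1857 ± 333 to 516 ± 54.7 CPM, with a log2 fold change of −1.85 ± 0.35 (adjusted p = 0.00793). *COL5A1*, a collagen V chain, had a log2 fold change of −1.17 ± 0.28 (adjusted p = 0.0319). In none of the 3 did a treated library reach the lowest control library. With the replicate block *TNC* and *COL11A1* were also called, or 5 of the 24 against 1.37% of all genes. By adjusted p alone with the block 15 members were lower, against 6.8% of all genes. The fibrillar collagen genes *COL1A1*, *COL1A2* and *COL3A1* were not called with or without the block, with log2 fold changes of −0.99, −0.68 and −0.65 (adjusted p = 0.294, 0.432 and 0.526). The median of the list was −0.76. None of the 11 mesenchymal markers tested was called with or without the block. Their log2 fold changes ranged from −1.01 for *LUM*, a matrix proteoglycan gene, to 0.37 for *PDGFRB*, a growth factor receptor gene, with a median of −0.06 (adjusted p = 0.436 and 0.633 for these genes). Summed over the 11 markers, which include *COL1A1* and *COL1A2*, the libraries were at 1695 to 2297 CPM with and at 2307 to 3403 CPM without SB431542, and the part of this sum in the matrix result was not tested.

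The contractile genes included 0 calls among 12 tested. *ACTA2*, the smooth muscle actin gene, was at 28.6 CPM in HSA + LDN and at 17.9 CPM in HSA + SB + LDN (log2 fold change −0.67, adjusted p = 0.718). *TPM1*, *TPM2* and *MYL9* were lower by adjusted p alone with the replicate block, or 3 of the 12 against 6.8% of all genes.

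The BMP pathway list had 0 calls among 24 members without the block. With it, 8 members were lower and 2 were higher by adjusted p alone, against 6.8% and 6.86% of all genes. *BMPR2*, the type II BMP receptor gene, was lower by adjusted p alone. It lay between 123 and 132 CPM in HSA + LDN and between 103 and 111 CPM in HSA + SB + LDN, with a log2 fold change of −0.26 ± 0.05 (adjusted p = 0.0101). The common SMAD1/5 target genes *ID2* and *ID3* had log2 fold changes of 0.25 and −0.15 (adjusted p = 0.668 and 0.885), and *ID1* was below the count filter. *SMAD6*, the inhibitory SMAD of this branch, was at 2.89 CPM without and at 1.57 CPM with SB431542 (adjusted p = 0.184, and 0.00748 with the replicate block). With the block *BMPR1B*, a type I BMP receptor gene, was downregulated (log2 fold change −1.80, adjusted p = 0.000535) and *CHRDL1*, which encodes a BMP antagonist, was upregulated (1.21, adjusted p = 0.0379).

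**Figure D2:**
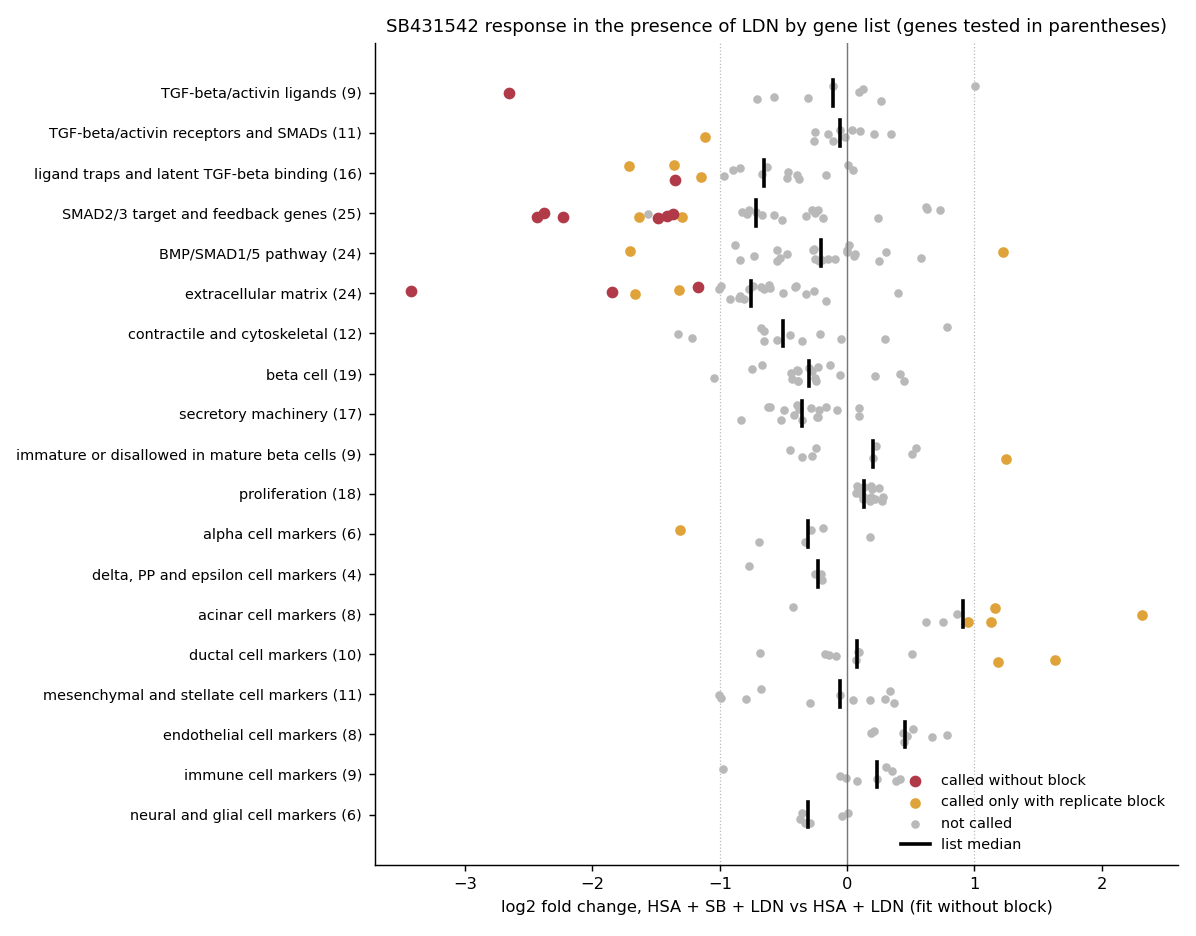
Log2 fold change of each tested member of 19 gene lists between HSA + SB + LDN and HSA + LDN (x axis, fit without block), with 1 row per list, black bars for list medians and dotted lines at the fold threshold of 1. Calls without the block (red) stood only in the ligand, ligand trap, SMAD2/3 target and matrix rows, and the acinar row had 4 calls with the replicate block only (orange).

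Other genes led the list by p value and had no place in the pathway lists. *WNT5A*, a Wnt ligand gene, fell from 52.2 ± 13.5 to 8.26 ± 0.974 CPM (log2 fold change −2.66 ± 0.31, adjusted p = 7.13e-05). *BMF*, which encodes a BH3-only protein that promotes apoptosis, was at 199, 257, 161 and 184 CPM in HSA + LDN and at 75.6, 107, 74.2 and 78.3 CPM in HSA + SB + LDN (log2 fold change −1.25 ± 0.18, adjusted p = 0.000647). *COL16A1*, a collagen chain that was not in the matrix list, had a log2 fold change of −1.71 ± 0.21 (adjusted p = 0.000115). *LIPG*, the endothelial lipase gene, and *UPK3A*, a uroplakin gene, had log2 fold changes of −2.03 and −2.52. For *UPK3A* there were only 16, 13, 12 and 12 reads in HSA + SB + LDN, and 93, 56, 74 and 80 in HSA + LDN. ENSSSCG00000011596, which had no symbol, showed the largest difference of the 12 genes named by the smallest p values, at 221, 307, 115 and 61.1 CPM without and at 8.0, 8.0, 1.38 and 3.61 CPM with SB431542 (log2 fold change −5.07 ± 0.64, adjusted p = 0.000138). Its levels differed between runs in both groups, but every treated library was below every control library.

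Among the upregulated genes, *CA2*, which encodes carbonic anhydrase 2, had the most uniform controls of the 12 named by p value, at 37.3, 36.1, 36.2 and 35.7 CPM. With SB431542 it was at 86.9, 63.5, 67.7 and 73.6 CPM (log2 fold change 1.01 ± 0.12, adjusted p = 0.000102), just above the fold threshold. The genes nearest to that threshold were *C1orf115* at 1.00 inside it and *ENPEP* at 0.97 outside it. *SFTPB*, the surfactant protein B gene, was at 0.616, 0.834, 0.834 and 1.55 CPM without and at 4.76, 6.2, 4.18 and 4.68 CPM with SB431542 (log2 fold change 2.37 ± 0.31, adjusted p = 0.000177). *LGALS13*, a galectin gene, had the largest increase of the 12 (log2 fold change 3.51 ± 0.43, adjusted p = 0.000102), but it rested on 3, 5, 5 and 5 reads in HSA + LDN and on 72, 34, 48 and 57 reads in HSA + SB + LDN.

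*RAB7B*, a small GTPase gene, and *SLCO2B1*, an organic anion transporter gene, rose with log2 fold changes of 2.07 and 1.31 (adjusted p = 0.00222 and 0.00864). *CPAMD8* (1.94), *MRGPRF* (1.43), *PPP1R16B* (1.06) and the unnamed ENSSSCG00000010280 (2.02) and ENSSSCG00000000675 (1.30) were also among the 12. In the HSA + LDN libraries *MRGPRF* had only 12 to 24 reads and ENSSSCG00000010280 only 13 to 17. The calls of *CA2*, *C1orf115*, ENSSSCG00000000675, *CPAMD8*, *PPP1R16B* and *MRGPRF* were lost when certain single libraries were left out. Their log2 fold changes in those 8 fits and the other settings had 0.86 for *C1orf115* as the lowest value of the 6. That they stayed positive follows from groups that did not overlap.

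**Figure D3:**
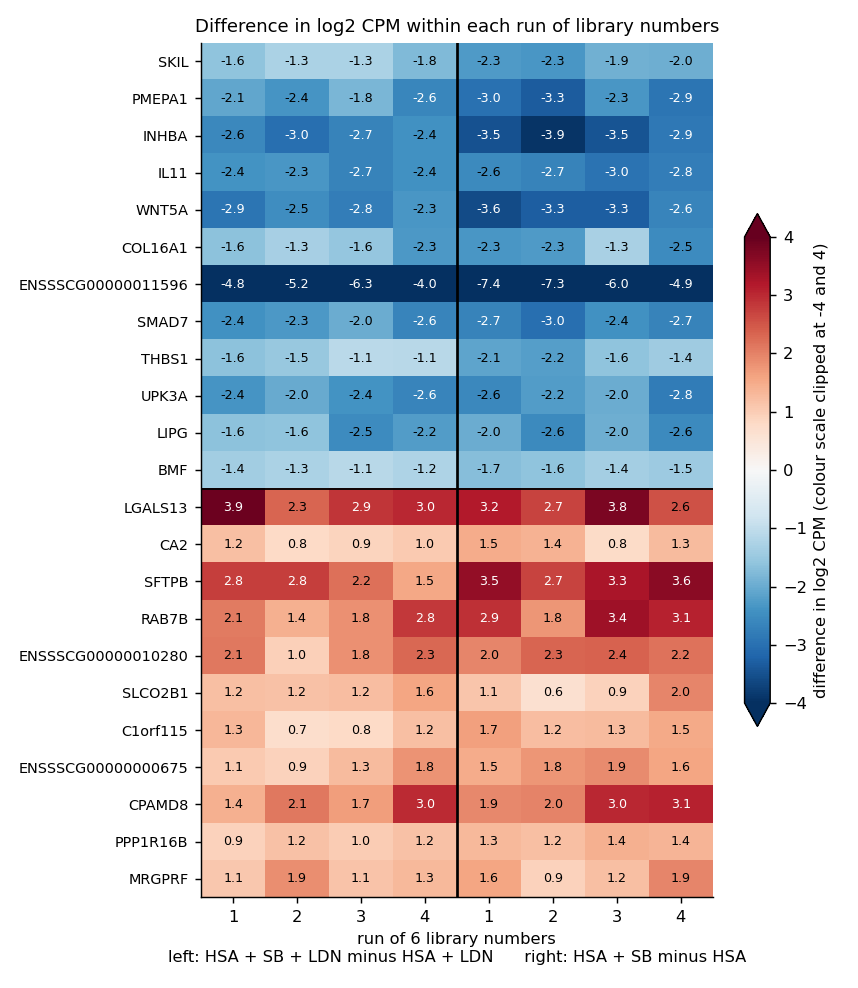
Difference in log2 CPM within each of the 4 runs of library numbers (columns) for 12 downregulated and 11 upregulated genes among those with the smallest p values (rows), on the left HSA + SB + LDN minus HSA + LDN and on the right HSA + SB minus HSA. The 23 genes shown were chosen for groups with LDN that did not overlap, which fixes their sign in the 4 runs on the left. *SKIL* ranged from −1.77 to −1.25 there.

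The separate measurement without LDN gave the same direction for all but 1 of the genes it called. Without LDN, 136 genes (0.916%) were upregulated and 223 (1.5%) were downregulated. Of the 223, 222 had a negative log2 fold change with LDN and 80 were called there, with medians of −1.27 with and −1.78 without LDN. Of the 136, all had a positive log2 fold change with LDN and 36 were called, with medians of 1.17 and 1.61. Read the other way, 80 of the 87 genes downregulated with LDN (92.0%) and all 36 upregulated genes were also called without LDN. No gene was called in opposite directions. The 80 became 49, 46, 42 and 47 without HSA + LDN replicate 1 and HSA + SB + LDN replicates 1, 3 and 4, respectively. The 36 became 15, 13, 21 and 13 without HSA + LDN replicates 1 to 4 and 15, 16 and 21 without HSA + SB + LDN replicates 1, 3 and 4. Across the 14842 genes, the log2 fold changes of both measurements had a Pearson's r of 0.853, and 0.929 over the 10050 genes with a mean of at least 10 CPM. Genes are not independent replicates, and the 4 runs of library numbers were common to both measurements.

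The log2 fold changes were smaller with LDN for 72 of the 87 downregulated genes (82.8%) and for 31 of the 36 upregulated genes (86.1%), although these genes had been chosen by their calls with LDN. Among genes called with LDN with the replicate block, the shares were lower. They were 162 of 203 downregulated (79.8%) and 121 of 182 upregulated genes (66.5%), by the fold changes without the block. For the 12 most significant downregulated genes, all 12 log2 fold changes were smaller in size with LDN. The HSA + LDN mean was below the HSA mean in 11 of these 12 genes, and the HSA + SB + LDN mean was above the HSA + SB mean in 10. *SKIL*, for example, was at 88.0 ± 10.7 CPM in HSA, 76.4 ± 11.4 in HSA + LDN, 20.2 ± 2.75 in HSA + SB and 27.3 ± 2.46 in HSA + SB + LDN. The control means differed less regularly over all 80 genes downregulated in both comparisons. Of these, 44 had a lower and 36 a higher mean in HSA + LDN than in HSA. The HSA + SB + LDN mean was above the HSA + SB mean in 66 of the 80 and below it in 14.

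The difference between the 2 responses was tested as an interaction, and 0 of 14842 genes passed with edgeR, with or without the replicate block, or with DESeq2. At an unadjusted p below 0.05 there were 174 genes (1.17%) without and 580 (3.91%) with the block. *SKIL* had the smallest unadjusted p of the 24 genes named by p value. Its response was −1.48 with LDN and −2.12 without, a difference of 0.64 (95% CI 0.31 to 0.96, unadjusted p = 0.000595, adjusted p = 1). For *PMEPA1* the difference was 0.70 (unadjusted p = 0.0123), for *INHBA* 0.71 (unadjusted p = 0.033) and for *SFTPB* −1.19 (unadjusted p = 0.0168), each with an adjusted p of 1. These values are from the fit without the block. With the block the unadjusted p of the interaction was smaller for *SKIL* (5.88e-05, adjusted p = 0.437), *PMEPA1* (0.00297) and *INHBA* (0.00605). For *SFTPB* it was 0.0244, and none of these genes passed after adjustment. Thus no single gene was shown to respond differently with LDN. For *SMAD7* the difference without the block was 0.39 with a 95% CI from −0.47 to 1.25.

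**Figure D4:**
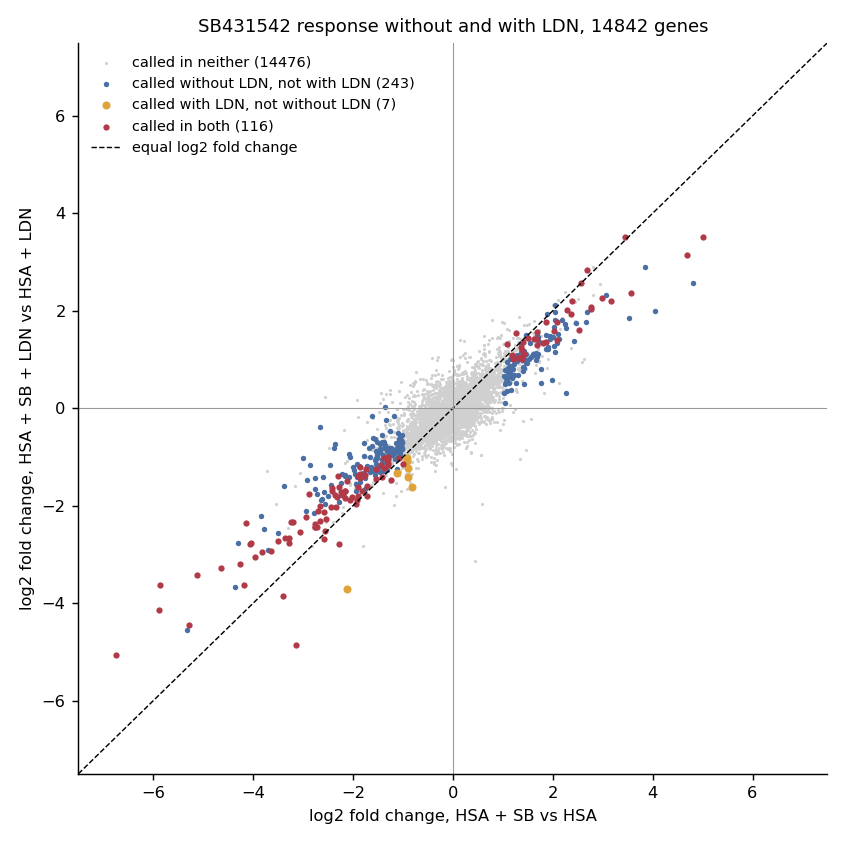
Log2 fold change by SB431542 without LDN (x axis) and with LDN (y axis) for 14842 genes, coloured by call, with the dashed line at equal values. The 116 genes called in both lay in the lower left and upper right quadrants, and the value with LDN was the smaller in size for 72 of the 80 downregulated and 31 of the 36 upregulated genes, on the shallow side of the dashed line, while 7 genes were called with LDN only.

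The 7 genes called with LDN and not without it were *CLDN11*, *COL9A3*, *FOXF1*, *HR*, *TMC3*, *TMEM61* and *WIF1*. All 7 were downregulated and had negative log2 fold changes without LDN, between −2.11 and −0.81. *FOXF1*, a mesenchymal transcription factor gene, was at −1.02 with LDN and at −0.92 without (adjusted p = 0.0061 and 0.0037), so that the fold threshold alone separated the calls. The interaction had an adjusted p of 1 in all 7.

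Beta cell genes were not called. Of 19 members tested, 0 passed the adjusted p threshold without the block, and the median log2 fold change was −0.30. *G6PC2*, which encodes an islet glucose-6-phosphatase and is named because it alone passed the fold threshold, was at 15.6, 4.17, 18.3 and 32.997 CPM in HSA + LDN and at 6.38, 1.75, 10.2 and 16.1 CPM in HSA + SB + LDN (log2 fold change −1.05, adjusted p = 0.671, and 0.0569 with the block). The groups overlapped, but in each run the treated library was lower. *INS* was at 1486, 899.8, 4312 and 5756 CPM in HSA + LDN and at 1758, 1091, 3422 and 4227 CPM in HSA + SB + LDN. Runs 1 and 2 were low and runs 3 and 4 were high in both groups, and the difference was positive in the former and negative in the latter (log2 fold change −0.25, 95% CI −1.90 to 1.41, adjusted p = 0.931). *ABCC8*, a subunit of the beta cell potassium channel, was lower in all 4 runs, by −0.82, −0.67, −0.63 and −0.84 in log2 CPM. Its adjusted p was 0.595 without and 0.042 with the replicate block. *NKX6-1*, a beta cell transcription factor gene, and *GIPR*, the incretin receptor gene, were also lower by adjusted p alone with the block (log2 fold change −0.41 and −0.66, adjusted p = 0.0252 and 0.0201), while *ERO1B* and *GLP1R* were higher (0.43 and 0.48, adjusted p = 0.0335 and 0.0397). By this rule 3 of the 19 were lower and 2 higher, against 6.8% and 6.86% of all genes.

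The 17 genes of the secretory machinery had 0 calls with or without the block and a median of −0.36. *CHGB*, the chromogranin B gene, was at 1287, 1349, 2081 and 2577 CPM in HSA + LDN and at 865, 959.5, 1115 and 1158.5 CPM in HSA + SB + LDN. The groups did not overlap, but the spread of the controls was wide (log2 fold change −0.83, adjusted p = 0.325, and 0.0415 with the replicate block). *CACNA1A*, a calcium channel gene, was also lower by adjusted p alone with the block. These were 2 of the 17, against 6.8% of all genes. *CHGA* and *CPE* had log2 fold changes of −0.38 and −0.22 (adjusted p = 0.782 and 0.874).

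Of 9 genes that are typical of immature beta cells or silenced in mature ones, 0 were called without the block. With it 1 was upregulated, against 1.23% of all genes, and 2 were higher by adjusted p alone, against 6.86%. *NEUROG3*, the transcription factor gene of endocrine progenitors, was higher by adjusted p alone with the block (0.52, adjusted p = 0.0477). It was at 6.30, 6.13, 8.02 and 4.50 CPM in HSA + LDN and at 8.44, 8.37, 10.8 and 7.91 CPM in HSA + SB + LDN, so that only the lowest treated library lay within the control range.

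The proliferation list showed no call among 18 members, although all 18 log2 fold changes were positive, between 0.07 and 0.28. *TOP2A*, the topoisomerase gene of dividing cells, was at 108 ± 15.5 CPM in HSA + LDN and at 123 ± 15.3 CPM in HSA + SB + LDN (log2 fold change 0.19, adjusted p = 0.837). *CCND2*, a cyclin gene, was higher by adjusted p alone with the replicate block (0.29, adjusted p = 0.0485). It was the only 1 of the 18, against 6.86% of all genes.

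None of 8 acinar markers was called without the block, and 4 were upregulated with it, against 1.23% of all genes. Their levels varied widely between runs, and the markers summed to between 1438 and 12058 CPM in HSA + LDN and between 3092 and 18825 CPM in HSA + SB + LDN. *CPA1*, the carboxypeptidase A1 gene, was at 6792, 2815, 3345 and 907 CPM without and at 10483, 5835, 6944.5 and 1961 CPM with SB431542 (log2 fold change 0.86, adjusted p = 0.677, and 0.97 with an adjusted p of 0.0165 with the replicate block). *BHLHA15* and *RBPJL*, transcription factor genes of acinar cells, and *CEL*, a lipase gene, were upregulated with the block (log2 fold change 1.17, 1.19 and 1.05). *GP2* was also upregulated with the block (2.25), at no more than 0.927 CPM in any of the 8 libraries. *CPB1*, a carboxypeptidase gene, went the other way and was the lowest of the list (log2 fold change −0.43, adjusted p = 0.798 without the block). The median of the list was 0.91 without and 1.01 with the block. In the same libraries 2 of 10 duct markers, *AQP1* and *TFF2*, were upregulated with the block, against 1.23% of all genes. The markers *KRT7*, *SOX9* and *CFTR* had log2 fold changes between −0.18 and 0.07. The lowest duct marker was *ONECUT2*, a transcription factor gene, at −0.68 (adjusted p = 0.23 without the block). Whether the acinar share of the clusters had a part in the other differences was not tested.

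**Figure D5:**
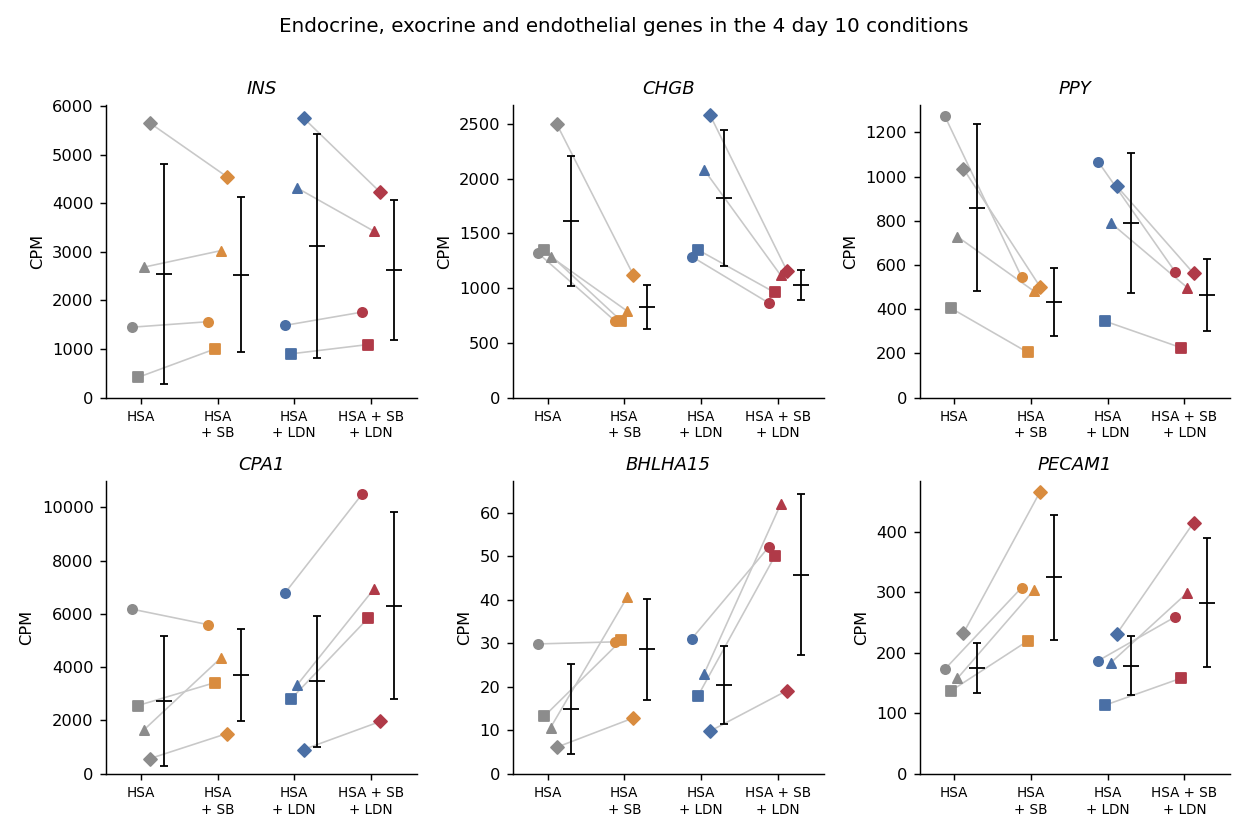
CPM (y axis, from 0) of 3 endocrine genes, 2 acinar genes and 1 endothelial gene in the 4 day 10 conditions, drawn as in the plot of SMAD2/3-linked genes, with bars for the mean ± SD of 4 libraries. The runs (symbols) kept much the same order within each condition, *CPA1* being lowest in run 4 (907 and 1961 CPM with LDN), and the lines show the change within a run.

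The 8 endothelial markers tested had positive log2 fold changes, between 0.19 and 0.79. Of the 8, 1 was higher by adjusted p alone, against 0.532% of all genes. This was *KDR*, the VEGF receptor 2 gene, at 66.7, 46.7, 53.7 and 52.2 CPM in HSA + LDN and at 93.6, 56.5, 108 and 120 CPM in HSA + SB + LDN (log2 fold change 0.79 ± 0.20, adjusted p = 0.0465). The treated library of run 2 lay within the control range. With the replicate block *PECAM1*, *CDH5*, *ESAM* and *EMCN* were also higher by adjusted p alone. By this rule 5 of the 8 were higher, against 6.86% of all genes. The markers summed to 353 to 887 CPM with and to 277 to 516 CPM without SB431542, while *ENG*, which endothelial cells also express, was downregulated with the block.

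The remaining cell type lists had no call without the block. Among the alpha cell markers *GCG* had a log2 fold change of −0.19 (adjusted p = 0.897), and *LOXL4* was downregulated with the replicate block (−1.33, adjusted p = 4.85e-05). *PPY*, the pancreatic polypeptide gene, was lower in all 4 runs, by −0.91, −0.62, −0.67 and −0.77 in log2 CPM, and passed by adjusted p alone with the block (adjusted p = 0.00719). By this rule 6.8% of all genes were lower. *SST*, the somatostatin gene, had a log2 fold change of −0.25 (adjusted p = 0.677). Immune markers summed to 27.1 to 53.0 CPM in HSA + LDN and to 29.7 to 62.0 CPM in HSA + SB + LDN. The neural and glial markers summed to 383 to 1424 and to 320 to 1324 CPM, respectively.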

How the data were processed

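Poly-A RNA was sequenced from strand-specific libraries, 24 in all (6 conditions of 4). The table deposited by the authors holds unnormalised whole-number counts for 25880 Ensembl genes. The submitters' processing notes name FastQC 0.11.8, Trim Galore 0.5, STAR 2.6.1, Picard, featureCounts 1.6.2 and DESeq2 1.22.1. Genome build and annotation are not given in the sources used here, so coordinates, sequences and gene lengths were not used. Symbols came from a table of gene names (14857 identifiers matched, 12522 of those tested). For 6 libraries the labels list 2 runs. Each had 1 column and was counted once.

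Groups followed the treatment and culture day labels. In R 4.3.3 with edgeR 4.0.16, genes were filtered with filterByExpr and scaled with TMM, and a quasi-likelihood model with 1 coefficient per condition was fitted to all 24 libraries. Adjusted p values are Benjamini-Hochberg values over 14842 genes. A gene was called when its log2 fold change exceeded 1 in size and its adjusted p was under 0.05. Errors of log2 fold changes are SE. Alternatives used other scalings, filters, sample sets, thresholds, a replicate block, DESeq2 1.42.0 and each library left out. The procedure was also run on simulated counts, which held no differences between runs and so could not test the choice of the block.

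The replicate block was the run of 6 consecutive library numbers. Deviations from condition means correlated between HSA + LDN and HSA + SB + LDN at 0.636 to 0.721 for the same run and at −0.521 to 0.247 for other runs, so the runs were treated as pairing the libraries. The pairing comes from these correlations, not from a label. If the runs are not the preparations, p values measure only the spread between these libraries.

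Named genes were members of 19 lists and, in each direction, the 12 called genes with the smallest p whose groups did not overlap and whose mean was at least 1 CPM. Some symbols in the lists were not tested because they were below the count filter or paired with no identifier. The lists and comparisons were chosen with earlier results of these data known. A few genes are not reported here.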

Additional observations from a re-analysis of the deposited data

Results flagged for a closer look

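In 90 groups of 4 values (42 genes and 3 library measures in HSA + LDN and HSA + SB + LDN), 6 had a library that stood apart by Dixon's criterion, and chance alone marks about 1 in 20 such groups. *INHBA* was at 54.0 CPM in HSA + LDN replicate 4 against 42.8 to 43.9 in the others. *TGFB1* was at 54.3 CPM in HSA + LDN replicate 3 against 75.9 to 78.0. *NEDD9*, an adaptor protein gene, was at 239 CPM in HSA + LDN replicate 2 against 148 to 159. *BMF* was at 107 CPM in HSA + SB + LDN replicate 2 against 74.2 to 78.3, *LDLRAD4* at 12.8 CPM in replicate 4 against 14.2 to 14.4, and *MYC* at 44.8 CPM in replicate 3 against 51.4 to 52.8. In each of the 6 genes the library that stood apart was still on its own group's side of the other condition. No measure of depth stood apart.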

How the results depend on the processing

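The counts of calls depended on the processing. With LDN, upregulated genes (36) became 68 with DESeq2, 18 with only the conditions compared, 182 with the replicate block, 175 with the block and only these conditions, 2 with glmTreat (a test against the fold threshold), 79 with adjusted p alone and 175 with DESeq2 and the block. Downregulated genes (87) became 203, 202, 10, 179 and 201 with the block, the block and only these conditions, glmTreat, adjusted p alone and DESeq2 with the block. Leaving out 1 library gave 13 to 39 and 43 to 82. Without LDN, upregulated genes (136) became 68 with only the conditions compared, 268 with the block, 230 with both, 12 with glmTreat and 495 with adjusted p alone, and downregulated genes (223) became 91, 371, 42 and 562 with only the conditions compared, the block, glmTreat and adjusted p alone. With DESeq2 and the block they were 259 and 360. Leaving out 1 library gave 92 to 127 and 144 to 269, with 144 without HSA + SB replicate 1. Genes downregulated in both comparisons (80) became 43, 180, 152, 10, 169 and 180, and genes upregulated in both (36) became 16, 161, 143, 2, 77 and 150, with only the conditions compared, the block, both, glmTreat, adjusted p alone and DESeq2 with the block. The latter became 61 with DESeq2. Leaving out 1 library gave 42 to 96 and 13 to 38. The cause of the differences between tools was not tested. The interaction had 0 calls in every alternative.

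The share of upregulated genes among the calls was 29.3% without and 47.3% with the block. Of the 24 genes named by p value, 18 kept their call in all alternatives but glmTreat and 0 changed sign in any. DESeq2 with the block was chosen after seeing the data. With 4 libraries per condition, genes of low counts and of high spread between runs were the least precisely measured.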

Other observations

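Further downregulated genes, chosen here after their values were seen, encode Wnt pathway proteins. *SFRP1*, a secreted Wnt antagonist gene, was at 293, 285, 195 and 223 CPM in HSA + LDN and at 66.7, 108, 37.3 and 56.7 CPM in HSA + SB + LDN (log2 fold change −1.89 ± 0.46, adjusted p = 0.0374). *LEF1*, the nuclear partner of beta-catenin, and *LGR5*, a receptor gene of R-spondins, had log2 fold changes of −1.48 and −2.01 (adjusted p = 0.0352 and 0.0448). *LGR5* was low in both groups (means of 1.38 CPM in HSA + LDN and 0.339 CPM in HSA + SB + LDN), and so was *WIF1*, another Wnt antagonist gene (1.01 and 0.327 CPM).

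Matrix genes outside the list were chosen in the same way. *COL8A2*, the second collagen VIII chain, was at 11.4, 8.39, 5.70 and 12.2 CPM in HSA + LDN and at 0.540, 0.189, 0.190 and 0.781 CPM in HSA + SB + LDN (log2 fold change −4.46 ± 0.73, adjusted p = 0.00232). *MFAP2*, a microfibril gene, and *THBS2*, the thrombospondin 2 gene, had log2 fold changes of −2.95 and −2.93 (adjusted p = 0.00358 and 0.0192). *HAS2*, a hyaluronan synthase gene, and *MMP1*, a collagenase gene, were at −2.69 and −2.79 (adjusted p = 0.00747 and 0.0448).

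*PAX4*, a transcription factor gene of beta cell development that was in no list, was at 2.27, 1.23, 1.99 and 1.6 CPM in HSA + LDN and at 0.589, 0.331, 0.570 and 0.244 CPM in HSA + SB + LDN (log2 fold change −2.02 ± 0.42, adjusted p = 0.0147). Among the upregulated genes, *LPL*, the lipoprotein lipase gene, rose from 44.5 ± 16.7 to 151 ± 43.9 CPM (log2 fold change 1.76 ± 0.41, adjusted p = 0.0326). *AFP*, the alpha-fetoprotein gene, was at 6.87, 11.9, 3.89 and 3.0 CPM without and at 48.7, 89.4, 29.1 and 16.4 CPM with SB431542, with the second run highest in both groups (log2 fold change 2.84 ± 0.72, adjusted p = 0.0457). *NRROS*, which encodes a protein that anchors latent TGFβ on myeloid cells, rose from 1.55 ± 0.398 to 4.13 ± 1.24 CPM (log2 fold change 1.41 ± 0.32, adjusted p = 0.0242).

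With the replicate block, *VCAN*, the versican gene, had the smallest unadjusted p for a difference between the responses with and without LDN (unadjusted p = 9.14e-06, adjusted p = 0.136). In the fit without the block its log2 fold changes were −0.74 with and −1.46 without LDN, and the unadjusted p of the interaction was 0.126.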
